A study of Mus musculus with 9 samples.

Results

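The histone genes described here are the Ensembl features of a mouse liver RNA-seq table whose symbols begin with H1f, H2ac, H2bc, H3c, H4c, H2az or H3f. Pseudogenes with "-ps" names were left out, which gave 77 of 55414 Ensembl features. They were sorted by name into 59 replication-dependent core genes (the c-numbered H2ac, H2bc, H3c and H4c genes), 5 linker genes of the histone clusters (H1f1 to H1f5), 6 replacement genes (H2az1, H2az2, H3f3a, H3f3b, H1f0 and H1f10) and 7 others. The 7 others are H1f6, H1f7, H1f8, H1f9, H3f3c, H3f4 and the H3f3a antisense gene H3f3aos. Values are in TPM, a transcript level corrected for length and scaled to a fixed total in each library.

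All livers came from NSG mice, an immunodeficient strain that lacks mature T, B and natural killer cells. The labels give the genotype as WT and no age or sex. The animals received tail vein injections for 5 weeks of phosphate-buffered saline (PBS, 3 libraries), of extracellular vesicles (EVs) from MCF-10A cells (3 libraries), or of EVs from MDA-MB-231 cells (3 libraries). MCF-10A is an immortalized human mammary epithelial line that forms no tumors, and MDA-MB-231 is a line of human breast cancer without hormone receptors or HER2 amplification. Neither the EV dose nor the number of injections is in the sources used here. The labels number the libraries within each group without saying that each is a separate mouse, so the spread behind each p-value is that between libraries and may be technical.

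Core histones H2A, H2B, H3 and H4 form the protein spool of the nucleosome, and linker histone H1 binds the DNA where it enters and leaves. Replication-dependent genes sit in clusters, are transcribed mainly in S phase, and most make mRNAs that end just after a short stem-loop, bound by the stem-loop binding protein, in place of a poly(A) tail. Replacement histones are made from polyadenylated, mostly spliced mRNAs throughout the cell cycle and supply non-dividing cells such as adult hepatocytes. Some cluster genes can also give longer, polyadenylated mRNAs in cells that have left the cycle.

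The 3′ stem-loop is shown first, because it was found in many core genes and in no replacement gene. In GENCODE M21 (GRCm38), in which all 77 genes were matched by identifier, protein-coding transcripts were searched on their sense strand for a 6-base arm that opens with GG and closes with CT, a 4-base loop that opens with TTT, and the reverse complement of the arm. The stem-loop was found in 37 of 59 core genes and 3 of 5 cluster linker genes, and in 0 of 6 replacement genes. Of the 7 others, 1 held it, H1f6. Of all 21901 genes with a protein-coding transcript, 49 (0.224%) held it. A further 12 core genes have no annotated 3′ UTR, and those of H2ac10 and H2ac12 are 1 and 2 bases long. This search could not have found a stem-loop there. The most common form, present in 24 of the genes that held one, is the one in the H2A genes H2ac18 and H2ac19 and in the linker gene H1f2. The sites below are given 5′ to 3′ with the stem-loop in capitals.
H2ac18, chr3:96246027-96246052, + strand: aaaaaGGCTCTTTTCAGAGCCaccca
H2ac19, chr3:96239779-96239804, - strand: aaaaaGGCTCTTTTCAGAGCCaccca
H1f2, chr13:23739507-23739532, + strand: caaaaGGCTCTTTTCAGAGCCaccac
H3c14, chr3:96247322-96247347, + strand: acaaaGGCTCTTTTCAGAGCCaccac
H2bc12, chr13:22036295-22036320, + strand: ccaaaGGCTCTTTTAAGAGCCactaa
H4c8, chr13:23531453-23531478, + strand: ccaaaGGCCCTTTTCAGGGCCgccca
H4c9, chr13:22040961-22040986, - strand: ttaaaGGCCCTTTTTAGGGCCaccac

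Clustered location differed between core and replacement genes too. Of the core genes, 49 lie on chromosome 13 and 10 on chromosome 3, and all 5 cluster linker genes lie on chromosome 13. The 6 replacement genes are spread over chromosomes 1, 3, 6, 11 and 15. H1f6, among the others, lies on chromosome 13. The deposited table has no coordinates and the submitters' processing notes name GRCm39, so all positions here are GRCm38 annotation and not those of the quantification.

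Several facts of the libraries bear on the histone values. All 10 hepatocyte markers (Alb, Ttr and others) were measured, and they summed to between 40120 and 109000 TPM, so the tissue label holds. Mitochondrial genes held 27.1% of Ensembl TPM in PBS 1, against 5.02% to 12.4% in the other libraries. Whether that share has a part in the histone values of PBS 1 was not tested. MCF-10A EV 1 had the highest sum of 10 neutrophil and granulocyte precursor genes, 5617 TPM against at most 246.6 TPM elsewhere, and of erythroid genes, 16040 TPM. Of the 9 erythroid genes, 6 were highest there, with the globin gene Hba-a1 alone at 9518.51 TPM. PBS 1 and MDA-MB-231 EV 3 had the highest sums of the nuclear RNAs Xist, Malat1 and Neat1, 525.8 and 554.5 TPM against at most 224.3 TPM. Xist and Neat1 were each highest in these libraries. Malat1 was not, at 57.33 and 53.95 TPM there and 81.90 TPM in MDA-MB-231 EV 1. The 3 MCF-10A EV libraries also differ from the other 6 in the table itself: each of 6059 loci assembled from the reads is listed at 0 in them, and all their features sum to between 935000 and 979400 TPM, against 1000000 TPM in each of the others. That difference in the table and the MCF-10A EV group cannot be told apart, and it applies to every comparison with that group below.

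Histone mRNA was a small share of these liver libraries, and most of the genes were barely seen. The 77 genes together held between 0.0875% and 0.130% of Ensembl TPM, and between 40 and 55 of them were above 0 in a library. Only 21 had a mean of at least 1 TPM over the 9 libraries and were tested: 15 core genes, the linker gene H1f2 and 5 replacement genes. By family, 7 of 17 H2bc genes, 4 of 12 H4c, 2 of 18 H2ac and 2 of 12 H3c genes were tested, against both H2az genes. Of the 56 genes not tested, 46 stayed under 1 TPM in every library. H1f7, H2ac1, H2ac10, H2ac14, H2ac15 and H2ac22 were listed at 0 in all 9. The highest value of any untested core gene was 2.18 TPM, for H2bc11 in PBS 1. Among the 7 other genes, H3f3aos reached 2.08 TPM in MDA-MB-231 EV 1, and the rest stayed at or under 0.51 TPM. TPM keep no read depth, so the depth behind these low values is unknown. Of the 21 tested genes, 18 had a mean of at least 1 TPM in all 3 groups, so 3 passed through 1 or 2 groups: H2bc21, H2bc6 and H3c14.

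**Figure D1:**
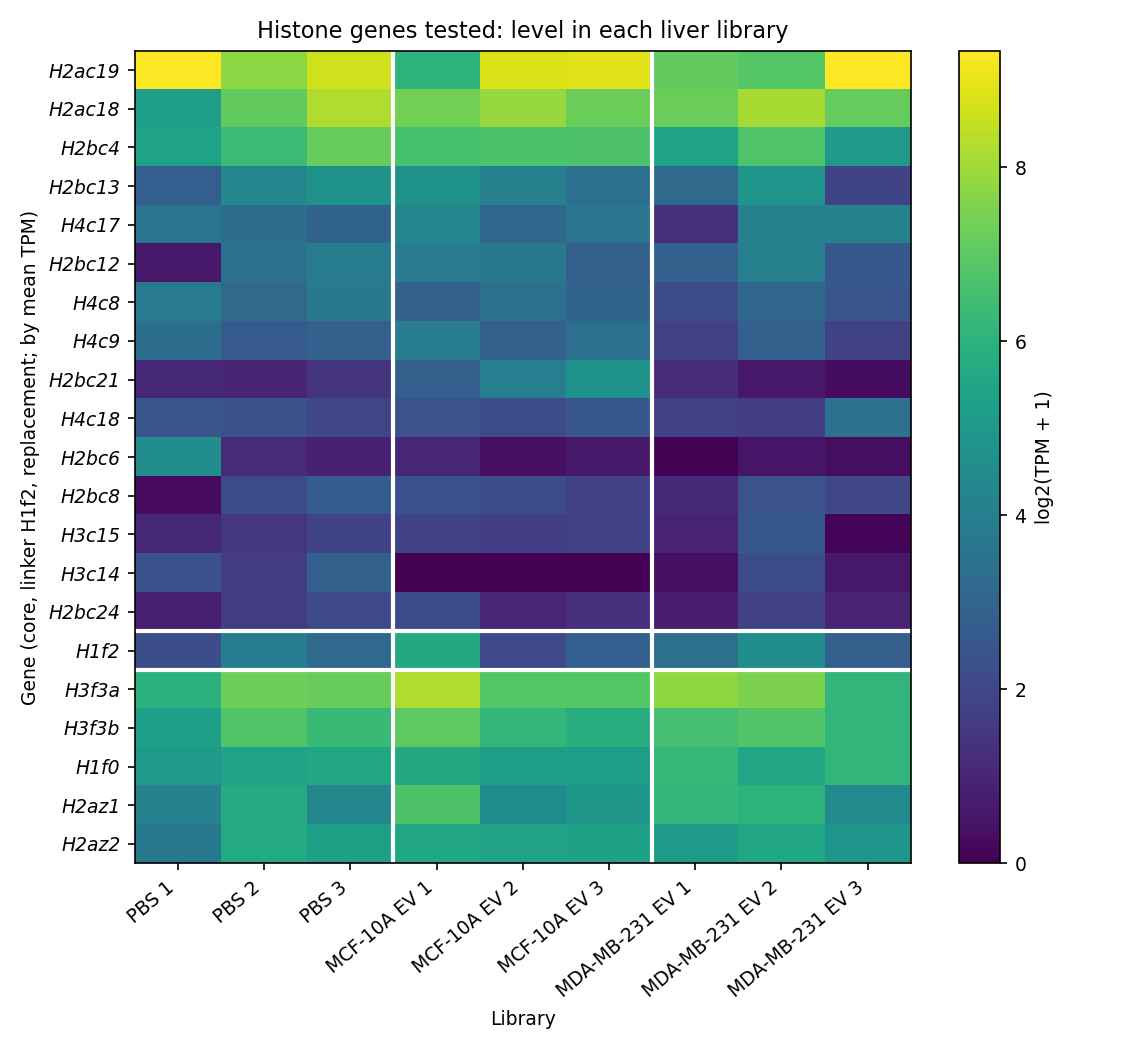
Level of the 21 tested histone genes in each of the 9 liver libraries, as log2(TPM + 1) on the colour scale, with core genes above, H1f2 between the white lines and replacement genes below, each ordered by mean TPM. H2ac19, H2ac18, H2bc4 and the replacement genes are bright in every library, and H2bc21 is brighter in the 3 MCF-10A EV libraries than in the other 6.

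The core total came mostly from 2 H2A genes. Summed core TPM was 796.6, 507.4 and 939.4 in PBS, 437.6, 881.8 and 835.6 in MCF-10A EV, and 359.4, 598.2 and 871.1 in MDA-MB-231 EV libraries 1 to 3. The groups overlapped throughout, with means of 748 ± 220, 718 ± 244 and 610 ± 256 TPM (SD, n = 3 each). H2ac18 and H2ac19 supplied between 51.7% and 90.0% of it. The other 57 core genes summed to 174 ± 59.2, 199 ± 11.6 and 123 ± 73.4 TPM (SD, n = 3 each). MDA-MB-231 EV 1 and 3, at 74.3 and 87.4 TPM, were the lowest of the 9 libraries in that sum, while MDA-MB-231 EV 2, at 208 TPM, lay inside the range of the other groups.

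Replacement genes were of the same order although there are only 6. Their summed TPM was 159.8, 408.6 and 325.9 in PBS, 632.2, 288 and 278.9 in MCF-10A EV, and 492.3, 444.9 and 259.2 in MDA-MB-231 EV. Group means were 298 ± 127, 400 ± 201 and 399 ± 123 TPM (SD, n = 3 each), again overlapping. Core genes made up between 40.9% and 83.3% of core plus replacement TPM, lowest in MCF-10A EV 1 and highest in PBS 1. In bulk tissue, more cells that make a histone mRNA and more mRNA per cell cannot be told apart.

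**Figure D2:**
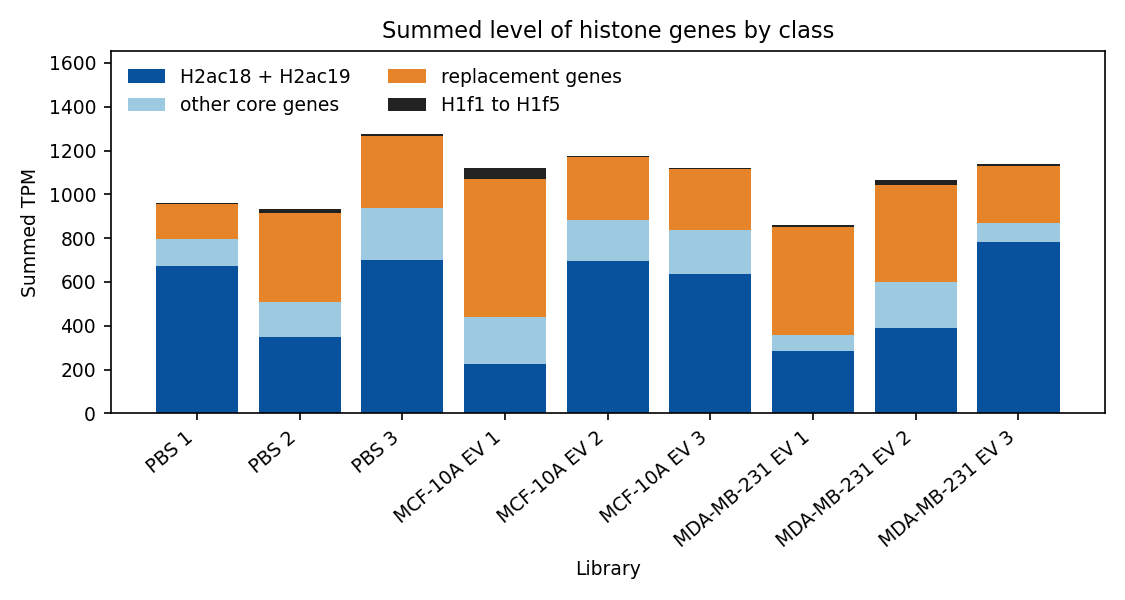
Summed TPM of histone genes in each library, stacked by class: H2ac18 with H2ac19, the other 57 core genes, the 6 replacement genes and H1f1 to H1f5. The H2ac18 and H2ac19 block ranges from 226 to 784 TPM, and the replacement block is tallest in MCF-10A EV 1, at 632 TPM.

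Of the 21 tested histone genes, H2bc21 alone passed the test in any comparison. H2bc21 (older symbol Hist2h2be) encodes an H2B protein in the histone cluster of chromosome 3. It was at 1.12, 0.93 and 1.73 TPM in PBS, 6.08, 14.90 and 26.80 TPM in MCF-10A EV and 1.27, 0.51 and 0.24 TPM in MDA-MB-231 EV. All 3 MCF-10A EV libraries were above all 6 others, and the PBS group overlapped the MDA-MB-231 EV group. The group means were 1.26 ± 0.418, 15.9 ± 10.4 and 0.673 ± 0.534 TPM (SD, n = 3 each), so the MCF-10A EV mean was 23.7-fold that of MDA-MB-231 EV and 12.6-fold that of PBS. Both folds are over low means. H2bc21 has a mean under 1 TPM in MDA-MB-231 EV, so its place among the tested genes is not independent of its level in the other groups.

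The test used log2(TPM + 1), on which changes of low genes come out smaller than their fold. H2bc21 was lower in MDA-MB-231 EV than in MCF-10A EV by a log2 change of -3.17 ± 0.52 (SE; limma, Benjamini-Hochberg adjusted p = 0.0427 over 12860 features). Against PBS the MCF-10A EV libraries differed by 2.71 ± 0.52 (limma, adjusted p = 0.112), which did not pass. MDA-MB-231 EV and PBS differed by -0.46 ± 0.52 (limma, adjusted p = 1). The call did not hold with the replicate number as a block (limma, adjusted p = 0.160 in all 3 groups and 0.391 in these 2), nor when any library but MCF-10A EV 1 was left out (adjusted p between 0.0783 and 0.273). It was also lost with no filter on level (limma, adjusted p = 0.234). Of 19 alternatives 5 kept the call and 14 did not, and under all 19 the change stayed below 0, between -4.37 and -2.71. Leaving out MCF-10A EV 1 instead also gave a call in MCF-10A EV against PBS (limma, adjusted p = 0.0454), as did array weights (adjusted p = 0.000135).

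**Figure D3:**
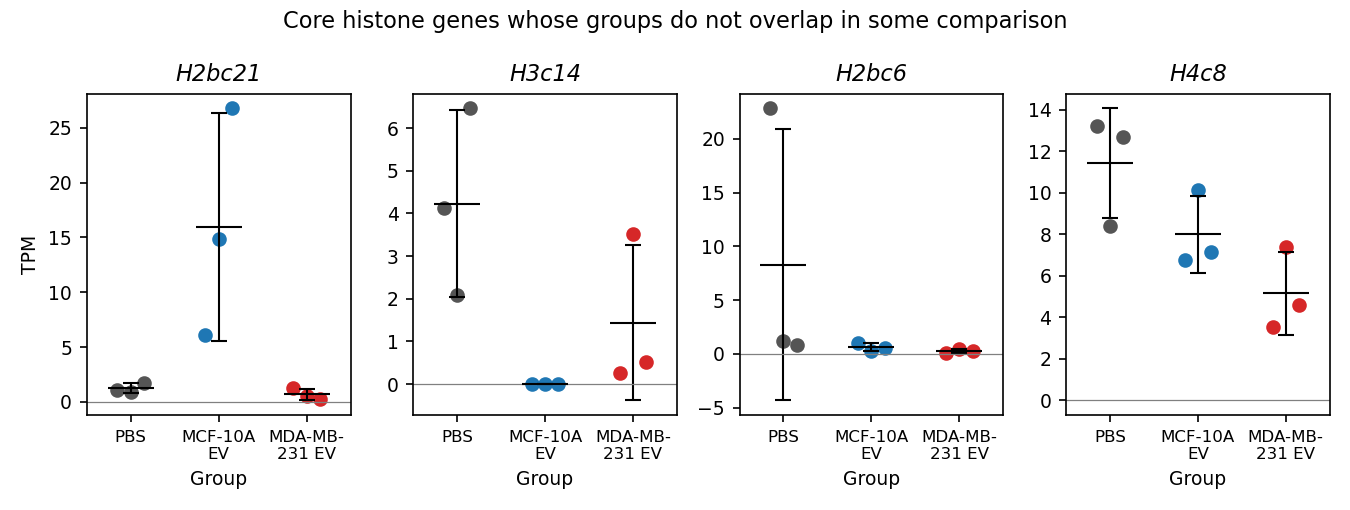
TPM of H2bc21, H3c14, H2bc6 and H4c8 in each library (points), with the group mean and SD (bars, n = 3); each gene has its own axis, and an SD bar may run below 0. H2bc21 in MCF-10A EV lies between 6.08 and 26.80 TPM, above the highest other library at 1.73 TPM.

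Sequence sets H2bc21 apart from most core genes. Its annotated transcript is 2620 bases long with a 3′ UTR of 2192 bases, holds no match to the stem-loop searched, and has a poly(A) signal (AATAAA or ATTAAA) within its last 40 bases. A lack of a match says only that these letters are absent there. None of its 50-base stretches (0%) occurs in another annotated gene, and no annotated gene overlaps it, so sharing of reads with a copy is not seen in this annotation. The gene lies at chr3:96221119-96223738 on the + strand.

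H2bc21 faces the H2A gene H2ac20 head to head, with 239 bases between their starts. H2ac20 was at 0 in the 3 PBS libraries, at 0.17, 0 and 1.34 TPM in MCF-10A EV and at 0.19, 0.50 and 1.47 TPM in MDA-MB-231 EV, under the mean of 1 TPM needed for a test. The 3 PBS libraries and MCF-10A EV 2 were at 0, and no library was above 1.47 TPM. The stretch between both starts is shown because it holds the start of H2bc21, the gene with the call. The part of this stretch in the values was not tested. The stretch is the RefSeq promoter window of H2ac20 (GRCm38.p6, chr3:96220831-96221130, - strand), from 250 bases before its start to 50 after, and the annotated start of H2bc21, transcribed the other way, falls at its position 12. Capitals mark an octamer ATTTGCAT, 3 CCAAT boxes and a TATAAA, each searched on both strands.
H2ac20 and H2bc21: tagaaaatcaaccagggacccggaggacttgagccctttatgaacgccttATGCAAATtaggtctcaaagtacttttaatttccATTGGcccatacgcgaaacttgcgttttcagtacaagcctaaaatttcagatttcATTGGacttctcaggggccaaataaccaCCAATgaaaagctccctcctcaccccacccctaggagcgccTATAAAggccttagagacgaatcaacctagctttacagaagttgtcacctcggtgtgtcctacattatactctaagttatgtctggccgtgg

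These letters recur among the histone promoters. RefSeq windows were found for 68 of the 77 genes, with no entry for H2bc21 or H2bc4 themselves. The octamer, a site known from H2B promoters, was in 46.7% of H2bc windows and 24.5% of core windows, against 1.74% of all windows of that length. CCAAT was in 84.9% of core windows against 37.4% of all, and TATAAA in 56.6% against 13.6%. Of the 6 replacement windows, 16.7% held the octamer, 66.7% CCAAT and 16.7% TATAAA. A match describes letters in the window and not a bound site.

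Outside the histones, the 5 genes whose log2(TPM + 1) was most like that of H2bc21 over the 9 libraries were Csnk2a1 (Pearson r = 0.978), Cd28 (0.965), Mup13 (0.931), Prkci (0.924) and Gli1 (0.923). These are correlations over 9 libraries of 3 groups, given as a description. Cd28, a T cell co-receptor, was listed at 0 in all PBS and MDA-MB-231 EV libraries and was at 15.54, 43.21 and 50.98 TPM in MCF-10A EV. Gli1, a transcription factor of Hedgehog signalling, was at 13.83, 18.64 and 12.05 TPM there and at most 0.19 TPM elsewhere. The 8 lymphocyte markers together summed to 10.26, 0.21 and 2.33 TPM in MCF-10A EV and to between 0.11 and 1.5 TPM in the other 6 libraries. The part of the difference in the table, described above, in these values was not tested.

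H3c14, an H3 gene of the chromosome 3 cluster, had the opposite pattern. It was at 4.12, 2.09 and 6.47 TPM in PBS and at 0.27, 3.53 and 0.51 TPM in MDA-MB-231 EV, and was listed at 0 in all 3 MCF-10A EV libraries. MCF-10A EV lay below both other groups with no overlap, and PBS and MDA-MB-231 EV overlapped. The limma change of MCF-10A EV against PBS was -2.30 ± 0.56 (SE, adjusted p = 0.330), not called except with array weights (adjusted p = 0.000648), and no fold is given against a group listed at 0. H3c14 lies wholly inside the same-strand gene Gm20634, and 100% of its 50-base stretches occur there. Reads of H3c14 can therefore not be told from reads of Gm20634 by sequence. Gm20634, looked at after these values were seen, was at 2.80, 1.77 and 2.39 TPM in MCF-10A EV and between 1.27 and 3.26 TPM in the other 6. In all, 13 genes share 50-base stretches with H3c14. H3c15, an H3 gene of the same cluster with 63.5% of its stretches in Gm20634, was also looked at afterwards. It was at 2.47, 2.23 and 2.59 TPM in MCF-10A EV and between 0.06 and 4.87 TPM in the other 6. Rn7s1 and Rn7s2, 2 genes listed at equal values in each library, were also at 0 in the MCF-10A EV libraries and between 66.71 and 396.99 TPM elsewhere. They were picked from a list of RNAs without a poly(A) tail, of which 19 are in the table. Others of that list, such as Rpph1 at 1.87, 28.42 and 53.19 TPM, were above 0 in every MCF-10A EV library. Still others, such as n-R5s144 and Vaultrc5, were at 0 there.

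Against PBS, no histone gene was called in MDA-MB-231 EV. There limma called 0 of the 12860 tested features (0%), with 199 features and 3 histone genes at an unadjusted p under 0.05. The groups did not overlap for 2 of the 21 histone genes, H4c8 and H2bc6, against 6.03% of all tested features. H2bc6 has a mean of at least 1 TPM in PBS alone, so this count is not independent of the filter. H4c8, which encodes histone H4, was at 13.23, 8.38 and 12.68 TPM in PBS, 6.75, 10.14 and 7.14 TPM in MCF-10A EV and 3.52, 7.37 and 4.59 TPM in MDA-MB-231 EV. Every MDA-MB-231 EV library was below every PBS library, and MCF-10A EV overlapped both. The change against PBS was -1.04 ± 0.38 (SE; limma, adjusted p = 1).

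H2bc6, an H2B gene of chromosome 13, was at 22.87, 1.18 and 0.83 TPM in PBS, 0.99, 0.29 and 0.58 TPM in MCF-10A EV and 0.03, 0.46 and 0.27 TPM in MDA-MB-231 EV. PBS 1 stood far above the other 8 libraries, which lay at or under 1.18 TPM, and every MDA-MB-231 EV library was below every PBS library. Relative to PBS, the MDA-MB-231 EV value was -1.88 ± 0.84 (SE; limma, adjusted p = 1), and -0.75 with array weights; without PBS 1 the gene has a mean under 1 TPM and is not tested. H2bc6 overlaps Gm11398 and the linker gene H1f4 on its own strand. Gm11398, looked at after these values were seen, was at 2.91 TPM in PBS 1, 0.55 and 2.52 TPM in MDA-MB-231 EV 1 and 3, and listed at 0 in the other 6 libraries.

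In the comparisons with MCF-10A EV, the background of calls was low. Of the 12860 features, limma called 28 (0.218%) in MDA-MB-231 EV relative to MCF-10A EV, with 492 at an unadjusted p under 0.05. H2bc21 was the 1 histone gene among the 28. Against PBS, limma called 25 features (0.194%) in MCF-10A EV, with 411 at an unadjusted p under 0.05, and 0 of 21 histone genes, of which 2 were at an unadjusted p under 0.05. In both, H2bc21 and H3c14 were the 2 of 21 histone genes whose groups did not overlap, against 6.53% and 7.69% of all tested features. Neither has a mean of at least 1 TPM in every group, so this count is not independent of the filter. These comparisons share the MCF-10A EV libraries, so their values are not independent.

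**Figure D4:**
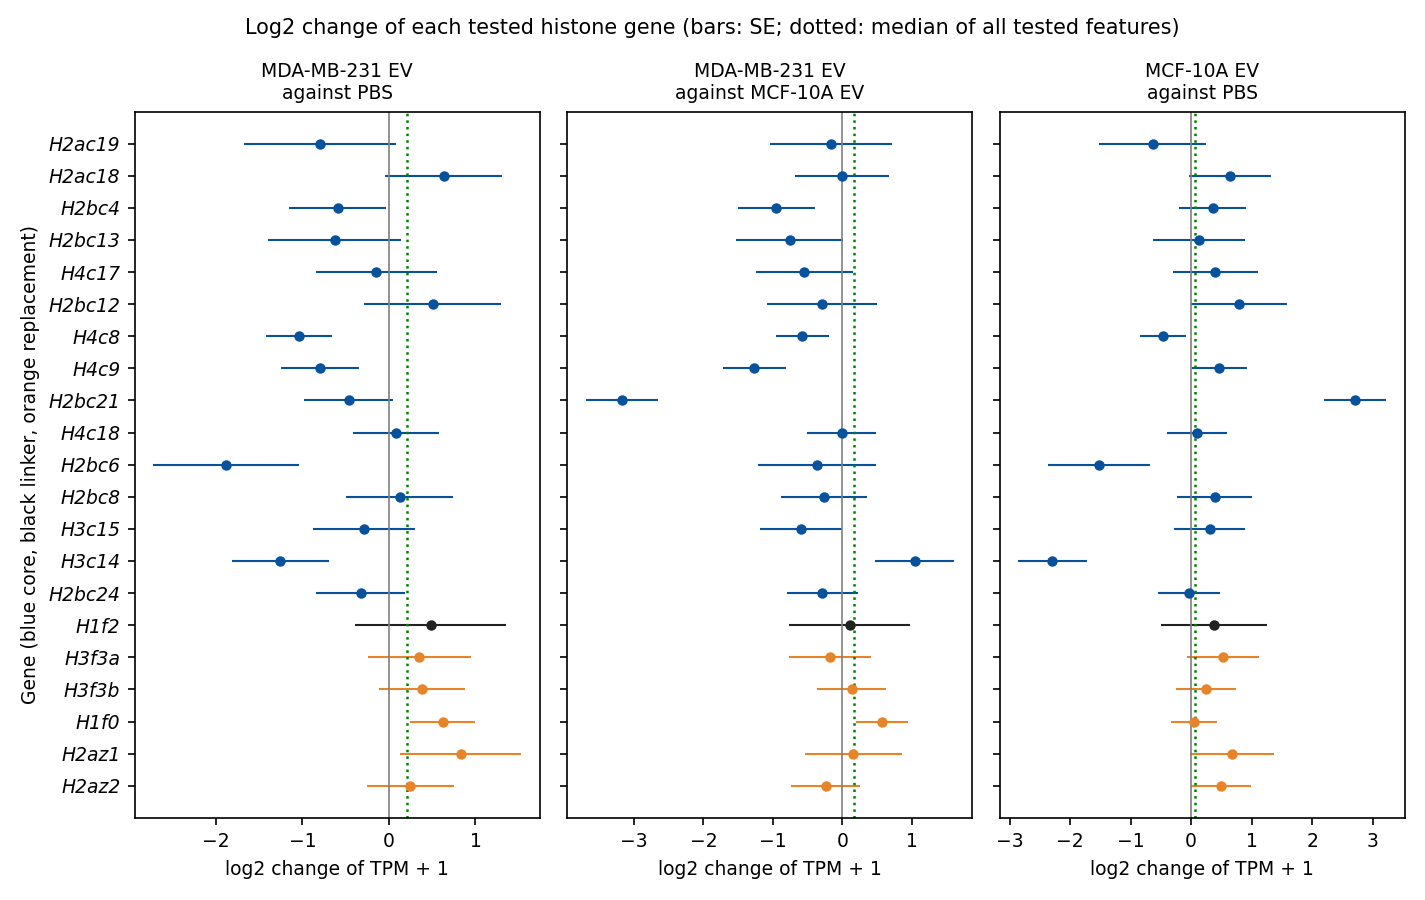
Log2 change (TPM + 1) of each tested histone gene in the 3 comparisons, with SE bars from limma, the median of all 12860 tested features as a dotted line, and a separate axis per panel. H2bc21 stands at -3.17 in the middle panel and 2.71 in the right panel, and the replacement genes lie above 0 in the left and right panels.

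The H2A genes H2ac18 and H2ac19 encode the same canonical H2A and had the highest level of all 77 genes. H2ac19 was at 636.35, 213.10 and 399.99 TPM in PBS, 64.01, 459.04 and 487.19 TPM in MCF-10A EV and 135.14, 117.58 and 645.84 TPM in MDA-MB-231 EV. H2ac18 was at 36.55, 135.44 and 300.24 TPM, 162.28, 234.65 and 150.45 TPM, and 149.95, 273.07 and 137.79 TPM in the same order. H2ac19 was highest in PBS 1 and MDA-MB-231 EV 3, the libraries with the highest Xist and Neat1 but not Malat1, and lowest in MCF-10A EV 1. Whether those RNAs have a part in it was not tested.

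The split between these genes is uncertain. The genes lie 5220 bases apart on opposite strands of chromosome 3, and 100% of the 50-base stretches of each occur in another annotated gene. H2ac19 held between 28.3% and 94.6% of their summed TPM. Their sum ranged from 226 to 784 TPM. Group means of the sum were 574 ± 196, 519 ± 255 and 487 ± 263 TPM (SD, n = 3 each) and overlapped. The pseudogene H2af-ps2, outside the gene set and looked at after values were seen, shares 65.5% of its 50-base stretches with H2ac19 and was at 146 to 639 TPM.

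**Figure D5:**
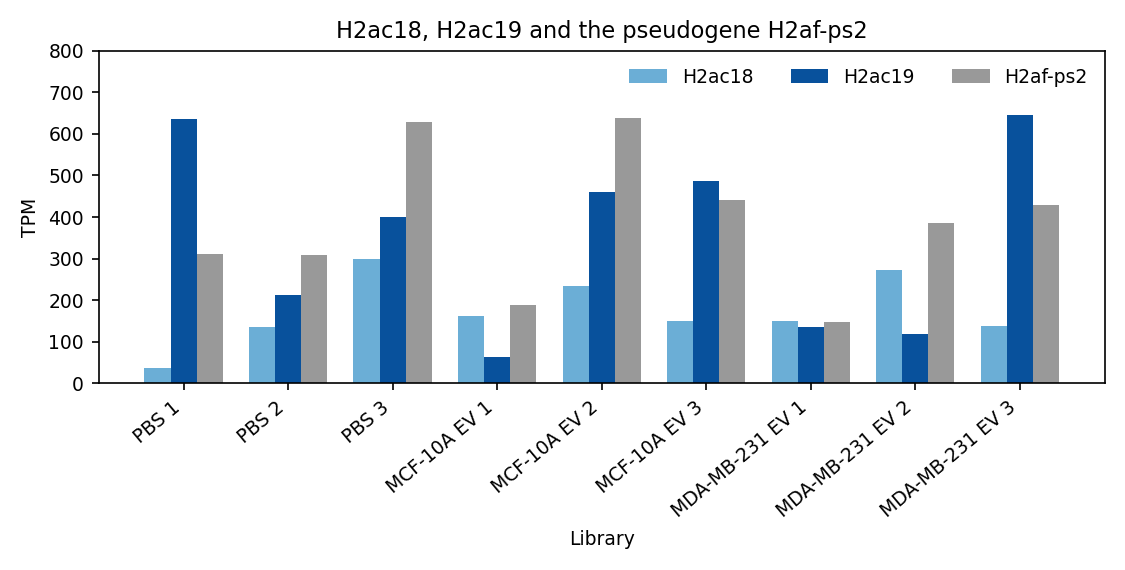
TPM of H2ac18, H2ac19 and the pseudogene H2af-ps2 in each library (bars from 0). H2ac19 is the taller of the H2ac pair in 6 libraries and the shorter in MCF-10A EV 1 and MDA-MB-231 EV 1 and 2, and H2af-ps2 lies between 146 and 639 TPM.

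H2bc4, another H2B gene, came next among the core genes. It was at 41.72, 82.23 and 142.73 TPM in PBS, 96.42, 101.72 and 106.18 TPM in MCF-10A EV and 42.08, 106.70 and 31.01 TPM in MDA-MB-231 EV. MDA-MB-231 EV 3, PBS 1 and MDA-MB-231 EV 1 were the lowest libraries, and all groups overlapped. Like H2bc21 it held no match to the stem-loop, but 30.6% of its 50-base stretches occur in other genes, most of them in H2bc8. Its change was -0.95 ± 0.56 in MDA-MB-231 EV relative to MCF-10A EV (SE; limma, adjusted p = 1).

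The other 8 tested core genes, which the same test did not call, were H2B genes H2bc8, H2bc12, H2bc13 and H2bc24, H4 genes H4c9, H4c17 and H4c18, and the H3 gene H3c15. Their means over the 9 libraries ran from 1.77 TPM for H2bc24 to 15.9 TPM for H2bc13. H4c9 was at 14.67, 6.30 and 9.69 TPM in MCF-10A EV, 2.42, 6.36 and 2.5 TPM in MDA-MB-231 EV and 9.36, 5.18 and 6.25 TPM in PBS, and its groups overlapped (MDA-MB-231 EV relative to MCF-10A EV -1.26 ± 0.45, SE; limma, adjusted p = 1). Most of these genes share sequence: 99.8% of the 50-base stretches of H2bc24 occur in H2bc23, 89.8% of those of H4c17 in H4c18, and 63.5% of those of H3c15 in Gm20634. Over all 59 core genes the median share found in another gene, on either strand, was 63.5%, against 11.2% for the 6 replacement genes. These shares also count genes that overlap at the same place, so they do not measure sharing between copies alone. All of the 5.68% of H1f0, for example, lies in Gm49544, which overlaps it on the other strand. Reads that core genes share can be split between them, so single core values are less certain than their sums. Of the 15 tested core genes, 11 held the stem-loop, 5 of these with over 100 bases annotated after it, and 6 had a poly(A) signal within the last 40 bases. Of the 44 core genes not tested, 26 held the stem-loop and 5 the signal.

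Among linker histones, H1f2 was the 1 cluster gene with a mean of at least 1 TPM. It was at 3.77, 14.64 and 8.05 TPM in PBS, 49.85, 3.19 and 5.92 TPM in MCF-10A EV and 9.96, 22.94 and 6.02 TPM in MDA-MB-231 EV. MCF-10A EV 1 was the highest of the 9 libraries and MCF-10A EV 2 the lowest, so the groups overlapped. H1f1, H1f3, H1f4 and H1f5 stayed at or under 0.36 TPM. The replacement linker H1f0, known for its place in differentiated cells, was at 32.00, 40.31 and 46.03 TPM in PBS, 50.12, 36.02 and 36.48 TPM in MCF-10A EV and 73.61, 43.43 and 69.67 TPM in MDA-MB-231 EV. MDA-MB-231 EV 1 and 3 were its highest libraries, and MDA-MB-231 EV 2 lay within the range of the other groups. Its changes were 0.62 ± 0.38 against PBS and 0.57 ± 0.38 against MCF-10A EV (SE; limma, adjusted p = 1 in both). H1f10, the other replacement linker, was between 0 and 0.81 TPM and was not tested.

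The replacement H3 genes H3f3a and H3f3b encode the same protein, H3.3. H3f3a was at 60.64, 154.26 and 144.10 TPM in PBS, 300.32, 117.19 and 115.27 TPM in MCF-10A EV and 219.15, 181.16 and 70.40 TPM in MDA-MB-231 EV. H3f3b was at 37.53, 109.32 and 78.17 TPM, 130.02, 72.12 and 57.81 TPM, and 94.83, 109.83 and 69.06 TPM in the same order. Both were lowest in PBS 1 and highest in MCF-10A EV 1, and all groups overlapped.

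The replacement H2A genes H2az1 and H2az2 encode the H2A.Z variants, found at promoters. H2az1 was at 16.68, 53.21 and 18.55 TPM in PBS, 104.85, 22.33 and 29.73 TPM in MCF-10A EV and 71.74, 63.85 and 21.36 TPM in MDA-MB-231 EV. H2az2 was at 12.73, 50.70 and 38.96 TPM, 46.13, 40.26 and 39.39 TPM, and 32.92, 46.09 and 28.73 TPM in the same order. H2az1 was again highest in MCF-10A EV 1 and both were lowest in PBS 1. Of the 50-base stretches of H2az1, 69.6% occur in other genes and 60.8% in Tmcc1 alone, while none of those of H2az2 (0%) do.

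MCF-10A EV 1 was the highest library for 7 of the 21 tested histone genes, among them H1f2, H2az1, H3f3a and H3f3b. The same library had the highest values of 21 of 28 genes of a list of DNA replication and S phase genes, and the highest sum, 143.5 TPM against 76.7 to 131 TPM elsewhere. The proliferation marker Mki67 was at 2.81 TPM there and at most 0.52 TPM in the others. Of the 14 histone mRNA synthesis and processing genes in the table, 3 were highest in that library. These were Slbp, at 15.58 TPM against at most 10.79 TPM elsewhere, Casp8ap2 and Eri1. The sum of all 14 there, 147.6 TPM, was below the 233.6 TPM of PBS 1 and the 340.8 TPM of MDA-MB-231 EV 3. Srrt alone was at 127.62 TPM in PBS 1 and 194.52 TPM in MDA-MB-231 EV 3. All 10 neutrophil and granulocyte precursor genes were highest in MCF-10A EV 1 too, with Elane and Mpo at 95.76 and 116.88 TPM and at most 1.84 and 3.34 TPM elsewhere. The summed level of that list was 18.7 to 95.8 TPM in PBS, 38.5 to 5617 TPM in MCF-10A EV and 32.6 to 225 TPM in MDA-MB-231 EV. The 9 erythroid genes in the table summed to 802 to 4180 TPM, 1029 to 16040 TPM and 922 to 4165 TPM in the same order. Of these, 6 were highest in MCF-10A EV 1, among them the globin genes. Klf1 and Epor were highest in PBS 1 and Tfrc in MDA-MB-231 EV 3. The part of these cells in the histone values was not tested.

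Core and replacement genes were then set beside each other in each comparison, as medians of log2 change with no test, since the genes were not chosen independently of these data. Comparing MDA-MB-231 EV with PBS, the core median was -0.46, with 4 of 15 genes above 0, and the replacement median 0.38, with 5 of 5 above 0. The median of all tested features was 0.21, and 69.7% were above 0. Relative to that median, 13 of 15 core genes were lower and 5 of 5 replacement genes higher. The 15 include H2bc21, H2bc6 and H3c14, at -0.46, -1.88 and -1.26, which lack a mean of at least 1 TPM in every group. H2bc21 is itself the core median here. In each comparison, therefore, the core median and counts are not independent of the filter. The core median stayed below 0 in every alternative run, between -0.74 and -0.21. The replacement median was -0.04 without PBS 1.

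In MDA-MB-231 EV relative to MCF-10A EV the core median was -0.36, with 1 of 15 genes above 0, and the replacement median 0.13, with 3 of 5 above 0. All tested features had a median of 0.17, and 65.0% were above 0. The core median was -0.74 without MDA-MB-231 EV 2 and stayed below 0 in every alternative run. With a library left out the replacement median ran from -0.27 to 0.47. It also turned below 0 under quantile normalization (-0.21), which moved the median of all features to -0.0023.

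In MCF-10A EV against PBS both medians were above 0, at 0.31 for the core genes (10 of 15 above 0) and 0.49 for the replacement genes (5 of 5), against 0.07 for all features (56.8% above 0). Without PBS 1 they were -0.20 and -0.086, so these directions rest on that library, and with array weights they were -0.47 and -0.21. The replacement median was also near 0, at 0.0116, without MCF-10A EV 1. The 3 comparisons share libraries, and their medians are not independent of each other.

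Genes of DNA replication and genes that act on histones or their mRNA were read from lists of names. The lists were chosen with earlier results of these data known. Of 18 tested DNA replication and S phase genes, limma called 0 in each comparison, with 0 at an unadjusted p under 0.05 in each. The same counts of 0 and 0 held for the 9 tested genes of histone mRNA synthesis and 3′ processing (Slbp, Cpsf2 and others) and the 19 tested histone chaperone and exchange genes (Nasp, Hira and others). Comparing MDA-MB-231 EV with PBS, 15 of 18 replication genes, 8 of 9 processing genes and 14 of 19 chaperone genes were above 0, with medians of 0.13, 0.38 and 0.15, beside 69.7% and a median of 0.21 for all features. Relative to MCF-10A EV, the MDA-MB-231 EV counts were 7, 6 and 13, with medians of -0.12, 0.06 and 0.11, beside 65.0% and 0.17. For MCF-10A EV against PBS they were 13, 6 and 9, with medians of 0.34, 0.35 and -0.0036, beside 56.8% and 0.07.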

How the data were processed

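Per the labels' protocols, the 9 liver libraries, 3 per group, were prepared from 1 µg of total RNA with a TruSeq RNA kit. Poly(A) selection and strandedness are not given in the sources used here. A single table was used: the authors deposited 1 table of TPM for 61473 features, of which 55414 have Ensembl identifiers; HISAT2, StringTie, RSEM and GRCm39 are named in the submitters' processing notes, without versions. TPM keep no depth, so counting intervals cannot be given.

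The two-sided test was that of limma 3.58.1 (R 4.3.3), applied to log2(TPM + 1) with all 3 groups in the fit and the prior variance trended. Ensembl features with a mean of at least 1 TPM over the 9 libraries were tested, 12860 in all, and p-values were adjusted over all of them by the Benjamini-Hochberg method per comparison. A feature was called at an adjusted p under 0.05. The procedure was tested on simulated data first.

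Genes and lists were chosen with earlier results of these data known. Given with every library's value are the 8 tested histone genes of highest mean, in each comparison up to 6 with the smallest p among those whose groups do not overlap, and a set always given (H2bc21, H2bc4, H1f2, H1f0, H1f10, H2az1, H2az2, H3f3a and H3f3b); H4c9 and H2ac20 were added after their values were seen, as were all sequence features. Transcripts came from GENCODE M21 and promoters from RefSeq, both GRCm38.

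Samples with the same replicate number deviated together in MDA-MB-231 EV relative to MCF-10A EV (r across features of 0.34, 0.11 and 0.44 for replicates 1 to 3), so the blocked value stands beside that result, although the labels do not say what the numbers share. Alternatives were 2 other pseudocounts, no filter, rescaling, quantile normalization, array weights, fits of only 2 groups, a replicate block, and each library left out.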

Additional observations from a re-analysis of the deposited data

How the results depend on the processing

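H2bc21 was the 1 histone gene called in MDA-MB-231 EV relative to MCF-10A EV, and 0 were called with no filter, under quantile normalization, with a replicate block, in a fit of only the 2 groups, in that fit with a replicate block, and without PBS 1 and MDA-MB-231 EV 3 together. The last 2 settings were chosen after seeing the data. Adjusted p of H2bc21 (limma) ranged from 0.0133 to 0.391 over its 19 alternatives, and 5 of them kept the call. Leaving out a library gave between 0 and 1 called histone genes. In MCF-10A EV against PBS, array weights gave 2 called genes (H2bc21 and H3c14) against 0, and leaving out a library between 0 and 1. In MDA-MB-231 EV against PBS 0 were called in every alternative run. Array weights turned the MCF-10A EV against PBS medians to -0.47 for core and -0.21 for replacement genes, and leaving out PBS 1 with MDA-MB-231 EV 3 to -0.20 and -0.086. With a library left out these medians ranged from -0.20 to 0.42 and from -0.086 to 0.76, and the core median of MDA-MB-231 EV relative to MCF-10A EV from -0.74 to -0.13. The cause was not tested. In the comparisons with PBS the same replicate numbers did not all deviate together (r between -0.39 and 0.50), and the replicate block changed no call there. Summed TPM by class moved by less than the spread between replicates when each library's Ensembl features were rescaled to an equal total. H2bc6 could not be tested without PBS 1, where its mean is under 1 TPM. Low values limit the 56 untested genes, since TPM give no depth.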

Other observations

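H2A genes outside the gene set were also high in these livers. H2aj, a replacement H2A gene, was at 230.57, 282.59 and 245.78 TPM in PBS, 191.05, 354.65 and 332.22 TPM in MCF-10A EV and 81.45, 210.76 and 442.01 TPM in MDA-MB-231 EV libraries 1 to 3. MDA-MB-231 EV held both its lowest and its highest library, so the groups overlapped. The macroH2A gene Macroh2a1 ran from 17.09 to 46.74 TPM and H2ax, the H2A variant phosphorylated at DNA breaks, from 4.98 to 15.71 TPM. MCF-10A EV 1 was the highest library for both. H2ax held a 3′ stem-loop of the kind searched, with 822 bases annotated after it. Of 9 other variant histone genes listed, 6 were tested, and limma called 0 in each comparison, with 0 at an unadjusted p under 0.05 in each. H2aj, Macroh2a1 and H2ax were picked from that list after their values were seen.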
